A study of Arabidopsis thaliana with 2 samples.

Results

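The results concern 8 Arabidopsis thaliana genes of gravity responses, grouped under the sedimentation of starch plastids (amyloplasts) and traffic to the vacuole. Not every gene acts in both, and ARG1 and ARL2 are known for early gravity signalling. The 8 genes were chosen by locus, as SGR2 (AT1G31480), VTI11 (AT5G39510, also SGR4), SYP22 (AT5G46860, also SGR3), GRV2 (AT2G26890, also SGR8), SGR6 (AT2G36810), SGR9 (AT5G02750), ARG1 (AT1G68370) and ARL2 (AT1G59980). Each of the 8 loci was found on 1 non-control spot per array, among 25665 loci named on the array. By their locus names they lie on chromosomes 1, 2 and 5. The rule itself uses no measured value. On the array itself SGR2, SYP22, VTI11 and ARG1 are described by name, SGR6 only as an expressed protein, GRV2 and ARL2 as proteins with a DnaJ domain, and SGR9 as a RING finger protein.

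Inflorescence stems of the sgr1 mutant were compared with those of wild type, WT(Col), on 2 two-colour Agilent arrays. The lesion of sgr1 lies in SCARECROW (SCR), which encodes a transcription factor needed to form the shoot endodermis. The sources used here do not name its allele. Seeds of both genotypes had 3 days of cold and 10 days on plates, and the plants then stood in soil at 23 °C in continuous light. Each RNA preparation used at least 10 plants, whose primary stems stood 5 to 8 cm tall, and took the 1.5 cm of stem that lies 0.3 to 1.8 cm below the apex. In array 1 sgr1 carried Cy3 and wild type Cy5, and in array 2 the dyes were exchanged.

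The shoot senses gravity in the endodermis, where amyloplasts fall to the lower side of the cell. A large central vacuole fills most of such a cell, and the plastids move through thin strands of cytoplasm that cross it. Mutants with a malformed vacuole membrane, with blocked vesicle fusion at the vacuole, or with plastids held by actin filaments can bend poorly although the starch is present. The endodermis is the layer that sgr1 fails to form. In stem RNA, fewer cells of a type and less RNA per cell cannot be told apart.

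Values per genotype are normalized intensities of a probe, on a linear scale, and are not comparable between probes. They were not scaled between arrays. Whether genotypes overlap across arrays therefore depends on the brightness of each array as well, while the ratio within an array does not. Ratios are log2 of sgr1 over wild type, as the mean ± SD over the arrays (n = 2). Intervals are 95% intervals from limma, a linear model that pools the spread over all genes, and adjusted p-values are limma's after Benjamini-Hochberg adjustment over 19059 genes tested. The labels do not settle whether the arrays hold separate plant samples, so p-values measure only the spread between these arrays, which may be technical. With 1 residual and 47.7 prior degrees of freedom, p-values and intervals rest mostly on the spread pooled over all genes. A gene's own disagreement between arrays thus widens its interval only a little. Because each array had 1 dye orientation, a difference between arrays cannot be told apart from a dye effect.

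Both arrays were on 1 slide, and each of the 4 channels had between 59.2% and 66.5% of its non-control spots well above background. SCR was 1.98-fold lower in sgr1, with ratios of -0.81 and -1.16 (adjusted p = 3.29e-07); its probe may lie outside the lesion. All 5 inflorescence stem markers were well above background in both genotypes on both arrays. Of 5 root markers only COBL9 passed the filter for dim probes, and PHT1;1, SMB and NRT2;1 were well above background in no channel.

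None of the 8 genes was called different between sgr1 and wild type. Of the 7 that could be tested, 0 had an adjusted p under 0.05 by limma, where 18.9% of all genes tested did, 9.92% higher and 8.98% lower in sgr1. At an unadjusted p under 0.05, limma gave 1 of the 7, SGR9, where 30.2% of all genes passed. With trend and robust eBayes, another variance model in limma, the count was also 0. The 7 mean ratios ran from -0.29 to 0.26, 6 of them below 0, with a median of -0.053 beside 0.0048 over all genes tested. The 95% intervals reached at most 1.48-fold lower (SGR9) and 1.45-fold higher (VTI11) in sgr1. A p-value that misses the threshold does not show that the genotypes have the same level.

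**Figure D1:**
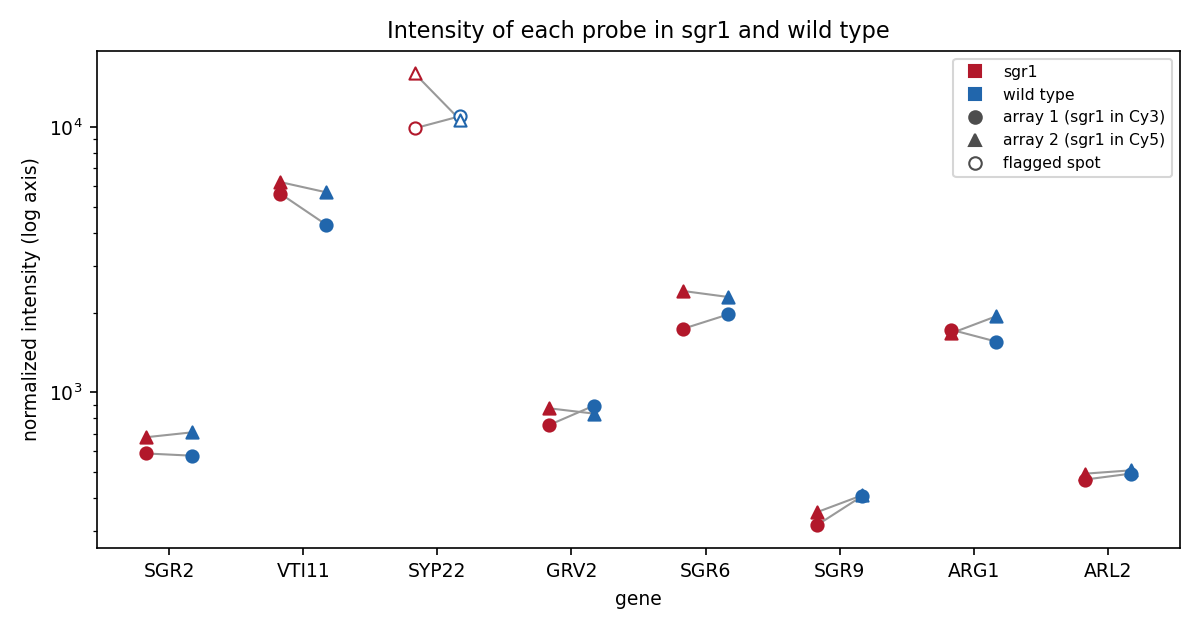
Normalized intensity (log axis) of the 8 genes in sgr1 (red) and wild type (blue), on array 1 (circles) and array 2 (triangles), with a line joining the genotypes of 1 array. Open symbols mark SYP22, whose spots were flagged. In SGR9 both sgr1 points lie under both wild-type points, while the lines of SGR2, SYP22, GRV2, SGR6 and ARG1 slope in opposite directions on the arrays.

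SGR2 encodes a protein like phospholipase A1, which metabolises membrane lipids and is found at the vacuole membrane. Its probe read 589 and 678 in sgr1 and 578 and 708 in wild type. The genotypes overlapped, and the arrays themselves differed by more than sgr1 and wild type did on either of them. The mean ratio was -0.016 ± 0.063, with an interval of -0.30 to 0.26 (adjusted p = 0.960 by limma).

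SGR6 encodes a protein with HEAT repeats that resides on the vacuole membrane. It read 1736 and 2414 in sgr1 and 1969 and 2291 in wild type. sgr1 was the lower genotype on array 1 and the higher on array 2, and the groups overlapped. The mean ratio was -0.053 ± 0.18, with an interval of -0.33 to 0.23.

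VTI11 is a Qb-SNARE, a protein of the bundle that fuses vesicles with the late endosome and vacuole. Its intensities were 5610 and 6208 in sgr1 and 4293 and 5685 in wild type. sgr1 was higher on each array, by 0.39 on the log2 scale on array 1 and by 0.13 on array 2, although the ranges of the genotypes overlapped across arrays. The mean ratio of 0.26 ± 0.18, a 1.19-fold difference, did not pass the test (interval -0.025 to 0.54, limma adjusted p = 0.215). It was the only one of the 7 above 0.

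SYP22, the Qa-SNARE that pairs with VTI11 at the late endosome and vacuole, gave no usable ratio. The scanner software flagged its spot as non-uniform in the Cy5 channel on both arrays, so it was left out of the test. The flagged spots read 9901 and 15959 in sgr1 and 11001 and 10646 in wild type, so the genotypes overlapped. When flagged spots were kept, a choice made after seeing the data, its ratios were -0.15 on array 1 and 0.58 on array 2. In both cases the Cy5 channel was the brighter, with wild type in it on array 1 and sgr1 on array 2. The mean was then 0.22 ± 0.52 (interval -0.091 to 0.52, limma adjusted p = 0.368), the widest gap between arrays among the 8 genes. Both of its own ratios lay outside this interval, which rests mostly on the spread pooled over all genes.

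GRV2 encodes a large DnaJ-domain protein of late endosomes, related to RME-8 of Caenorhabditis elegans. It read 753 and 872 in sgr1 and 893 and 832 in wild type. sgr1 was lower on array 1 and higher on array 2. The mean ratio was -0.089 ± 0.22, with an interval of -0.37 to 0.19 (limma adjusted p = 0.739).

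SGR9 is a RING-type ubiquitin ligase on amyloplasts that limits their attachment to actin filaments. Its probe read 316 and 354 in sgr1 and 407 and 410 in wild type. Both sgr1 values lay below both wild-type values. The ratios were -0.37 on array 1 and -0.21 on array 2, a mean of -0.29 ± 0.11 or 1.22-fold lower in sgr1. This was the largest mean difference of the 7, and 71.0% of all genes tested had a smaller one. The interval was -0.57 to -0.011, and the difference did not pass (adjusted p = 0.148 by limma). SGR9 was also the dimmest against its own background, with a scanned signal 3.35 times the local background in sgr1 on array 1, and 10.2 times in wild type, which carried Cy5 there.

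ARG1 and ARL2 are related DnaJ-like proteins, known from roots and hypocotyls, where they act in early gravity signalling before auxin is redistributed. ARG1 read 1725 and 1670 in sgr1 and 1555 and 1939 in wild type, with sgr1 higher on array 1 and lower on array 2. Its mean ratio was -0.033 ± 0.26 (interval -0.32 to 0.25), and its arrays differed by 0.37, the most among the 7. ARL2 read 469.5 and 494.2 in sgr1 and 494.3 and 508.6 in wild type. Its groups did not overlap, by a margin far under the spread between arrays, and its mean ratio of -0.058 ± 0.023 had an interval of -0.34 to 0.22. Another relative, ARL1, gave -0.18 ± 0.077 and did not pass (adjusted p = 0.429 by limma).

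**Figure D2:**
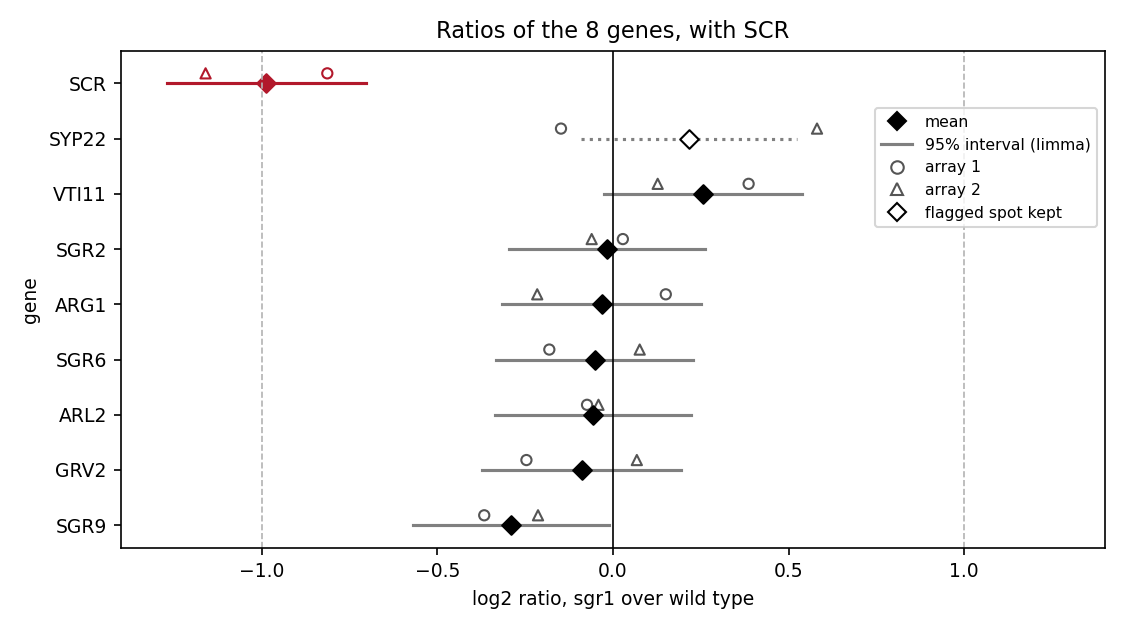
Log2 ratio of sgr1 over wild type for each gene, with array 1 as circles, array 2 as triangles, the mean as a diamond and the 95% interval from limma as a line; the open diamond and dotted line give SYP22 with its flagged spots kept. Dashed lines mark 2-fold, at -1 and 1. SCR lies at -0.99, while the means of the 7 tested genes lie between -0.29 and 0.26 and no interval among them reaches -1 or 1.

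In order of mean ratio the 7 genes ran VTI11, SGR2, ARG1, SGR6, ARL2, GRV2 and SGR9. No neighbours in this order had intervals that failed to overlap, and all 7 intervals shared the range from -0.025 to -0.011. Only VTI11, SGR9 and ARL2, 3 of 7, had the same sign on both arrays, where 67.2% of all genes tested did. In 2 of 7, SGR9 and ARL2, the intensities of the genotypes did not overlap, where 41.8% of all genes tested did not. The gap between the arrays' ratios had a median of 0.26 over the 7 genes and 0.19 over all genes.

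**Figure D3:**
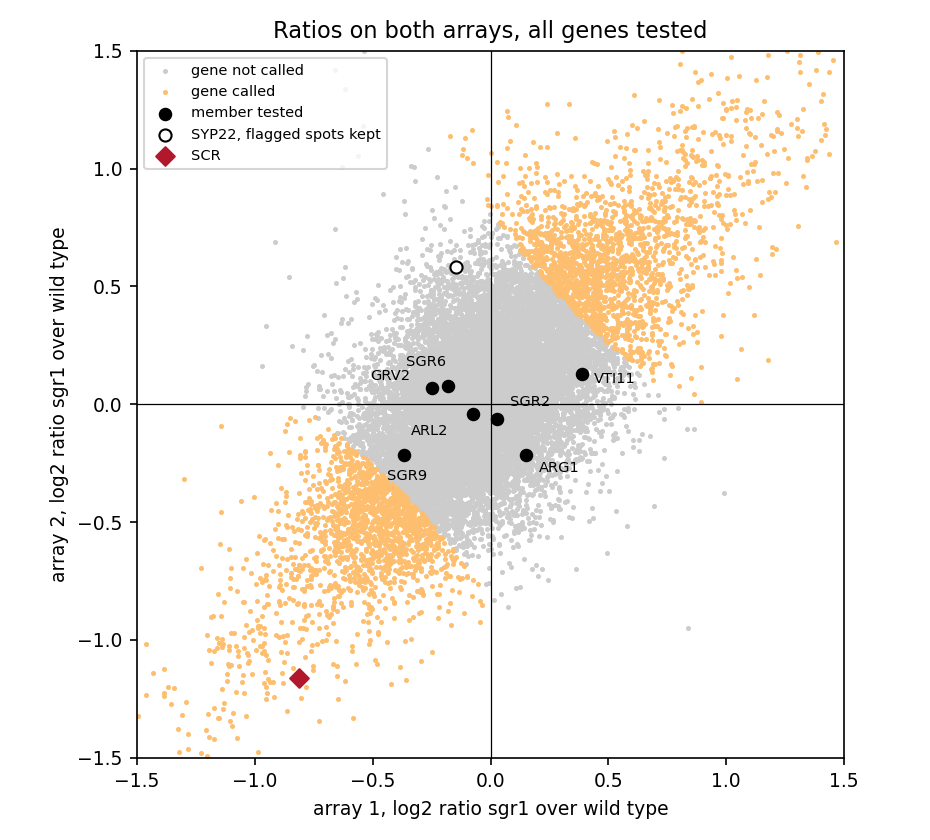
Log2 ratio of sgr1 over wild type on array 1 (horizontal) against array 2 (vertical) for all 19059 genes tested, called genes in orange and others in grey; 167 genes beyond 1.5 are not shown. The 7 tested genes (black) fall in the grey area around 0 and SCR (red) in the called area at the lower left, while SYP22 with flagged spots kept (open) lies at -0.15 and 0.58.

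The scanner software's own error model, in the authors' deposited files, gave each single spot a p for its ratio. For the 7 tested genes these ran from 0.065 (SGR9, array 1) to 0.943 (GRV2, array 2). For the flagged SYP22 spot it was 0.353 on array 1 and 0.00745 on array 2. All 8 probes were well above background in all 4 channels. Whether a probe also binds transcripts of relatives was not tested, as probe sequences were not used here.

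On a list of SNAREs and their regulators, 2 of 17 tested rose in sgr1 and none fell, with a median ratio of 0.11. The list is not confined to genes that work with VTI11 and SYP22 at the vacuole, as it also holds SYP41, SYP42, SYP43, SYP61, YKT61 and VPS45. That was 11.8% called, beside 18.9% of all genes tested. SYP23, a close relative of SYP22, read 2363 and 3100 in sgr1 and 1794 and 1939 in wild type. Both sgr1 values lay above both wild-type values, a 1.45-fold rise (0.54 ± 0.20, adjusted p = 0.0039 by limma). VAMP727, an R-SNARE of seed plants that forms a complex with SYP22, VTI11 and SYP51, read 6343 and 8271 in sgr1 and 5025 and 5645 in wild type. It rose 1.36-fold (0.44 ± 0.15, adjusted p = 0.0185 by limma), again without overlap. SYP51 itself had a ratio of 0.10, VAMP713, the R-SNARE of the vacuole membrane, -0.18, and VTI12 and VTI13, the relatives of VTI11, 0.12 and 0.058; these 4 did not pass. The differences between the 2 SNAREs that rose and VTI11 were not tested.

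Of 19 tethering factors and RAB GTPases, which hold vesicles at the target membrane before fusion, 1 rose and none fell. This is 5.26%, beside 18.9% of all genes. The median ratio was 0.098, with 0.019 on array 1 and 0.18 on array 2. RABG3A, of the RAB7 type found on the vacuole, read 6784 and 7198 in sgr1 and 4750 and 5420 in wild type, 1.38-fold higher (0.46 ± 0.074, limma adjusted p = 0.0134). The other 5 RABG3 genes had ratios from -0.23 (RABG3C) to 0.28 (RABG3B) and did not pass. VPS41, whose missense change is known to suppress the vti11 mutant, had a ratio of 0.47 on array 1 and -0.017 on array 2. VPS3, VPS11, VPS16, VPS18 and VPS39, also of the tethering complexes, ran from -0.099 to 0.21. VPS33, another subunit, was listed with the SNAREs and their regulators and is not among these 19. It was left out for a flagged spot and stood at -0.26 and 0.54 with such spots kept.

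Among 15 genes for retromer, which recycles cargo from late endosomes, and for vacuolar sorting receptors, none rose and 1 fell. The share called was 6.67%, beside 18.9% of all genes. The median ratio was 0.019, with -0.0019 on array 1 and 0.12 on array 2. VSR5, of the receptor family, read 93.2 and 89.98 in sgr1 and 148 and 132 in wild type, both sgr1 values below both of wild type. It was 1.52-fold lower (-0.61 ± 0.079, limma adjusted p = 9.6e-04). Its scanned signal in sgr1 was 1.21 times the local background on array 1 and 1.90 times on array 2. The scanner software's log ratios gave it a larger change of -1.505, and with them VSR7 was called too (-0.90, limma adjusted p = 0.0420), which stood at -0.13 as reported. VSR1, the main receptor for seed storage proteins, had a ratio of 0.29 and did not pass (adjusted p = 0.150 by limma).

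Of 11 genes for lipids, pumps and channels of the vacuole membrane, none rose and 1 fell (median 0.14). The share called was 9.09%, beside 18.9% of all genes. TIP1;1, a water channel of that membrane, read 72549 and 109762 in sgr1 and 123827 and 114832 in wild type. It fell by 0.77 on the log2 scale on array 1, with -0.065 for array 2, so that the call rests on array 1 (mean -0.42 ± 0.50, adjusted p = 0.0385 by limma). The call was lost without the filter on dim probes (adjusted p = 0.104) and with trend and robust eBayes (adjusted p = 0.329). FAB1A, a lipid kinase that shapes the vacuole, was at 0.34 and the proton pump AVP1 at 0.31, and neither passed.

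Of 8 genes linked to ARG1 or to gravity signalling through plastid import and auxin, 1 rose and none fell. This is 12.5%, beside 18.9% of all genes. The median ratio was 0.077, with 0.082 on array 1 and 0.011 on array 2. ADK1, an adenosine kinase, read 22341 and 26083 in sgr1 and 16930 and 19660 in wild type, a 1.32-fold rise (0.40 ± 0.0054, adjusted p = 0.0326 by limma). An offset of 16 in normexp ended the call (adjusted p = 0.0555), as did trend and robust eBayes (adjusted p = 0.0941), at like ratios. TOC75-III, the channel of plastid protein import and a known modifier of arg1, had ratios of -0.31 and -0.40 (mean -0.36, limma adjusted p = 0.0655), and TOC132, another such modifier, 0.052 and 0.19. The auxin carrier gene PIN3 was at -0.10.

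Of 8 tested genes for actin and plastid movement, 2 rose and none fell, or 25%, beside 18.9% of all genes. The median ratio was 0.0070, but -0.13 on array 1 and 0.24 on array 2. FIM5, which bundles actin filaments, was 1.32-fold higher (0.40 ± 0.11, adjusted p = 0.0332), and ADF1, which severs them, 1.31-fold higher (0.39 ± 0.062, adjusted p = 0.0406), both by limma. The same settings ended the call of ADF1, the offset of 16 at an adjusted p of 0.0665 and trend and robust eBayes at 0.0608. FIM5 read 2084 and 2659 in sgr1 and 1663 and 1903 in wild type. ACT8, in which a mutation alters plastid movement, had a ratio of 0.038 and did not pass. CHUP1, which anchors chloroplasts to actin, was left out for a flagged spot; with such spots kept it was at 0.57 and 0.50 (limma adjusted p = 0.00519).

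Across these 6 lists, 77 of 80 genes were tested, of which 6 rose and 2 fell, or 10.4%, beside 18.9% of all genes. AVP1 stood both on the vacuole membrane list and on the list linked to ARG1, and is counted once in these totals. The median ratio of the 77 was 0.085, with 0.025 on array 1 and 0.13 on array 2. As reported, none of the 8 called changes reached 2-fold. Starting from the log ratios of the scanner software ended the calls of SYP23, VAMP727, RABG3A, TIP1;1, ADK1, FIM5 and ADF1, with adjusted p by limma from 0.0846 to 0.161, and kept that of VSR5. Median centring ended all 8 (adjusted p = 0.999909 by limma for each). The ratios themselves stayed close in both settings for most of these genes: SYP23 was at 0.53 and 0.54, VAMP727 at 0.46 and 0.43, and RABG3A at 0.45 and 0.45, with the software's ratios and with median centring.

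**Figure D4:**
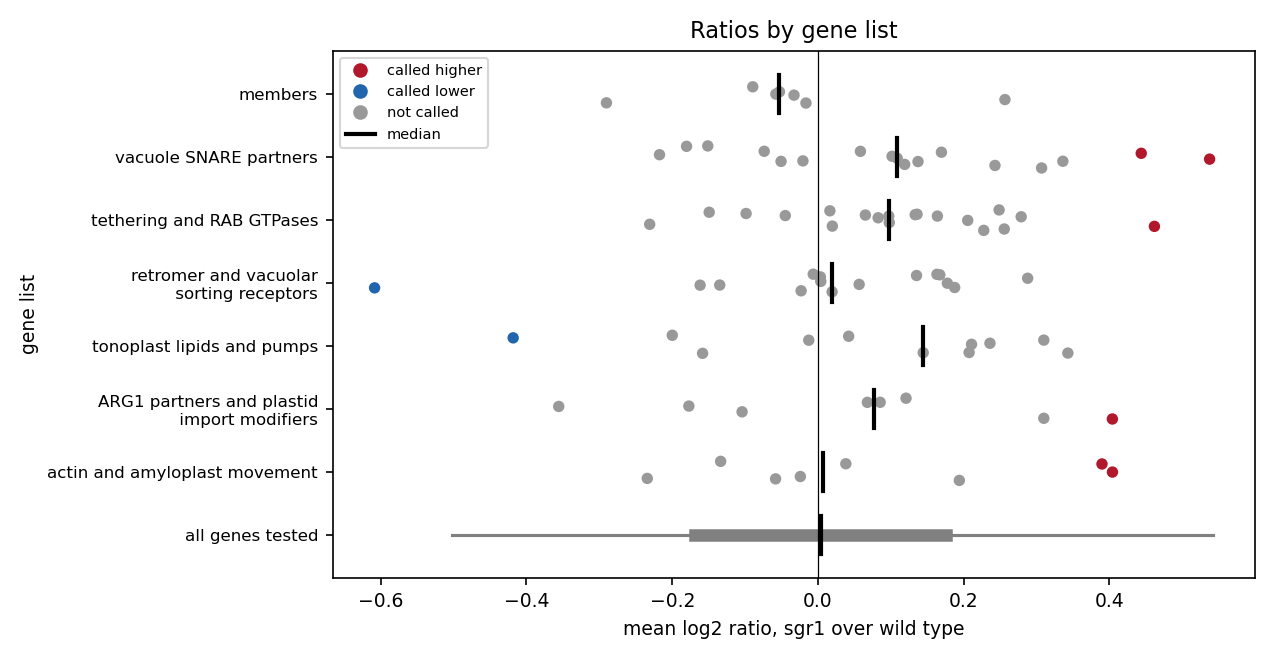
Mean log2 ratio of sgr1 over wild type for each tested gene, by list, with genes called higher in red, called lower in blue and others in grey; the black tick is the median of a list. AVP1 is plotted in both lists that hold it. In the bottom row the thick bar spans the 25th to 75th and the thin bar the 5th to 95th percentile of all genes tested. Medians lie between -0.053 (the 7 genes, labelled members) and 0.14, and the 8 called genes lie at the edges of their lists.

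Tissue markers differed between the genotypes as well. Over all genes tested, 8.98% were called lower and 9.92% higher in sgr1. Of 8 tested genes of the 9 listed for the endodermis, 5 fell and none rose. These were SCR, in which the lesion lies, SHR (-0.53), SGR5 (-1.02), LZY1 (-2.15) and EN7 (-0.66). CASP1 (-0.042), CASP2 (0.061) and ESB1 (-0.11) did not pass. MYB36, of the root endodermis, was well above background in no channel. Of 5 epidermis markers CER5 (0.70) and CER6 (0.53) rose and PDF1 fell (-0.69), of 5 xylem and fibre markers NST1 (0.78) and IRX3 (0.40) rose, and of 4 phloem markers none passed. The summed intensity of the 9 genes listed for the endodermis was 9133 and 9550 in sgr1 and 14633 and 17067 in wild type, without overlap. That of the epidermis markers was 39492 and 50538 in sgr1 and 32807 and 34669 in wild type, also without overlap. The genotypes did overlap in the sum of the xylem and fibre markers, 6152 and 7765 in sgr1 and 4983 and 6781 in wild type. They overlapped as well in that of the phloem markers, 14649 and 18586 in sgr1 and 15953 and 18882 in wild type. Among single genes, 41.8% of all tested showed no overlap. A sum leans on its brightest probes, and CER6 made up most of the epidermis sum, with 29624 and 39741 in sgr1 and 23711 and 23840 in wild type. SHR was the brightest in the endodermis sum, with 3410 and 3694 in sgr1 and 4731 and 5588 in wild type. The part of these tissue differences in the ratios of SYP23, VAMP727 and the other called genes was not tested.

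**Figure D5:**
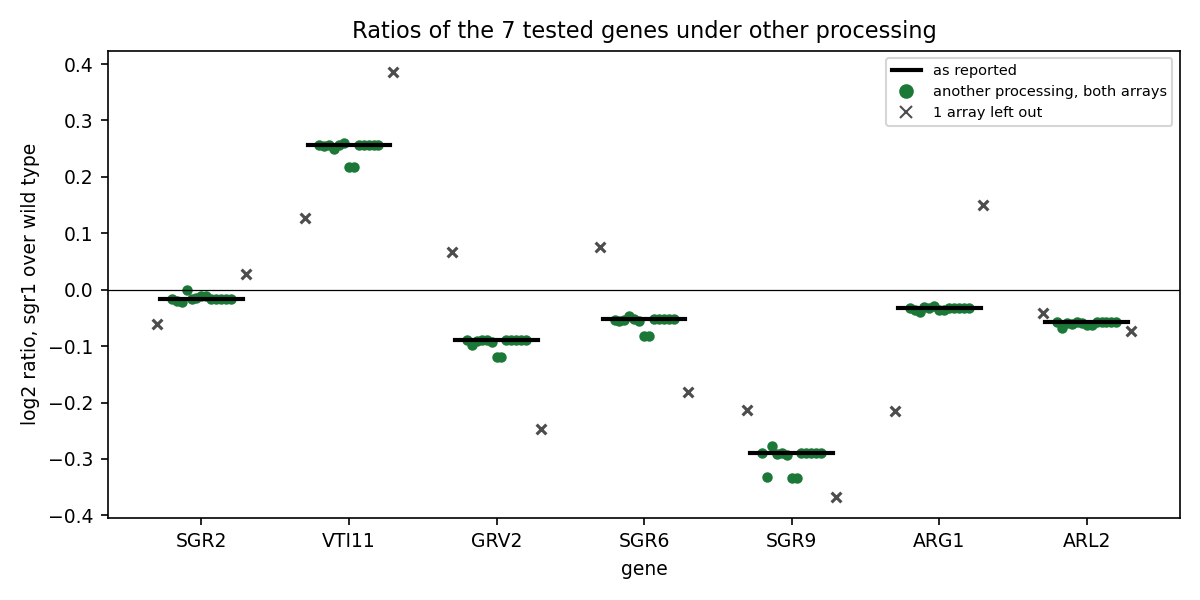
Log2 ratio of sgr1 over wild type for the 7 tested genes as reported (black line), under 13 other ways of processing both arrays (green points) and with 1 array left out (crosses). Green points stay close to the line, within -0.33 to -0.28 for SGR9 and 0.22 to 0.26 for VTI11, while the crosses of SGR2, GRV2, SGR6 and ARG1 fall on either side of 0. Some of the 13 could not move these ratios: the filters, variance model, probe choice, Aquantile normalization between arrays and averaging of both arrays. The deposited value table repeats the scanner software's ratios.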

How the data were processed

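The authors deposited 1 scanner file per array from Agilent Feature Extraction 9.1.3.1, per the file headers, with mean and background intensity, a log10 ratio (Cy5 over Cy3), its error score and a p-value per spot. The deposited value table holds that log10 ratio, untouched by the dye swap (0 of 39102 values differed by over 1e-06). No source used here names the genome build behind the probes, and no coordinates are printed; symbols were checked against TAIR10.1 names.

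Background was removed by normexp (offset 50), and dyes were balanced by loess within each array, in limma 3.58.1 (R 4.3.3), with control and flagged spots at weight 0, then left out. Array 1 was turned in sign. Probes needed 1 channel well above background on each array; probes of a locus were averaged. limma tested ratios against 0 (threshold 0.05, two-sided, 1 residual and 47.7 prior degrees of freedom). The procedure was also run on simulated data with the same dye bias on both arrays and independent noise per spot. Real differences between the arrays were not simulated, so that run does not show how reliable the calls are here. The genes, lists and alternatives were chosen with earlier results of these data known. Named were the 8 genes, all called genes of each list (up to 4), SCR and marker genes; other uncalled genes given by value were chosen after their values were seen. Alternatives covered background correction, normalization, starting values, filters, variance model, probe choice and left-out arrays.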

Additional observations from a re-analysis of the deposited data

How the results depend on the processing

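The test already pairs the genotypes by array, because each array is itself a direct comparison of sgr1 with wild type. All arrays form 1 group, so no further pairing was possible. None of the 7 tested genes was called under any of the 12 alternatives that give a test. SGR2 turned in sign with median centring (0.000198). Median centring in place of loess left 2 calls over all genes and 0 among the 80 listed genes, against 3602 and 8. The scanner software's log ratios, and the value table that equals them, gave 1952 calls over all genes and 2 among the listed genes (VSR5 and VSR7). With trend and robust eBayes 5 listed genes were called, and with a normexp offset of 16, 6. With both arrays averaged as 1 replicate the ratios are those reported and there is no test. With flagged spots kept, 8 genes were tested and 0 called, and 3533 of 19247 genes were called overall. Leaving out an array leaves no residual degree of freedom, so no counts exist; SGR2, GRV2, SGR6 and ARG1 then differ in sign between the arrays. Depth here is the number of arrays: 95% intervals, which are not adjusted for the number of genes, reached a median of 0.28 to either side of a ratio. The smallest mean change called at an adjusted p under 0.05 by limma was 0.375, so no smaller difference was called.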

Other observations

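Repeated spots give a measure of spot error on these arrays. On array 1, 22 probes stood on several spots that passed the filters, 9 to 10 each, and the SD of the log2 ratio over the spots of a probe had a median of 0.038. On array 2 the median was 0.036, over 6 to 10 spots. VPS26A, a retromer subunit, was measured on 10 spots per array. Its ratio was -0.0019 with an SD of 0.040 over the spots of array 1, and 0.27 with an SD of 0.064 over those of array 2. Its arrays thus differed by more than its spots did within either array. Each of the 8 genes had 1 spot per array, and the gaps between their arrays ran from 0.033 (ARL2) to 0.37 (ARG1) among the 7 tested.

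Ratios as small as those of the 7 genes were common. The number of other genes within 0.1 of a gene's ratio on both arrays was lowest for VTI11, at 358, and highest for ARL2, at 1753. For SGR9 it was 656. The 2 ratios per gene therefore single out no gene of like pattern.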
